A study of Mus musculus with 27 samples.

Results

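The genes described here are 10 that brake the cell cycle or answer to the tumour suppressor p53 in regenerating mouse liver: Cdkn1a, Cdkn1b, Cdkn2c, Cdkn2d, Mdm2, Aen, Bbc3, Bax, Ccng1 and Phlda3. They were chosen by name from the 54532 genes of the deposited table. All 10 passed the filter on low values (4 or more libraries at 1 FPKM or above), and 8 of them had at least 1 FPKM in every library. FPKM is the number of fragments per kilobase of gene and per unit of library size, so levels of different genes can be compared on it. The libraries were made from liver of wild-type mice of the strain C57/BL6J, 27 in all. Of these, 5 followed a sham operation (sham, with no time given), 7 were taken 24 h after removal of 70% of the liver (PHx24) and 7 at 48 h (PHx48). Another 4 were taken at 24 h from mice given etomoxir at 12.5 mg/kg into the peritoneum 4 h before surgery (PHx24_ETO). The last 4 were taken at 48 h from mice that had also received a second dose 24 h after surgery (PHx48_ETO). Etomoxir irreversibly blocks carnitine palmitoyltransferase 1, which starts the import of long-chain fatty acids into mitochondria. The labels do not give age or sex, a vehicle for the mice without etomoxir, or whether each library is a separate animal. P-values therefore measure the spread between these libraries.

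Cyclin-dependent kinases drive a cell from rest into DNA synthesis and mitosis, and small proteins hold them back. The CIP/KIP proteins p21 (Cdkn1a) and p27 (Cdkn1b) bind cyclin-kinase complexes, whereas the INK4 proteins p18 (Cdkn2c) and p19 (Cdkn2d) bind the kinases Cdk4 and Cdk6 and keep cyclin D off them. The transcription factor p53 switches on Cdkn1a, its own ubiquitin ligase Mdm2, Ccng1, Phlda3 and the cell death genes Aen, Bbc3 and Bax, and Mdm2 in turn lowers p53. In the resected liver, p21 is known to restrain hepatocytes that have entered the cycle.

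Libraries held 14903757 to 18446372 counts. The 10 hepatocyte markers summed to between 24800 and 66800 FPKM in every library, so the tissue label held. Skeletal muscle or pancreatic RNA was highest in 4 libraries. The 12 skeletal muscle genes summed to 5440 FPKM in sham 1, 2050 in PHx24 1 and 640 in PHx48 3. In sham 2, 8 pancreatic genes summed to 840 FPKM. Lower muscle sums were 95.6 FPKM in PHx48_ETO 4 and 84.8 in sham 2. The 5 adipocyte markers summed to 182 FPKM in sham 1, 124 in PHx48 3, 62.5 in PHx24 1, 50.75 in sham 2 and 35.4 in sham 3. Fits without the 4 libraries with other tissues left out sham 1, sham 2, PHx24 1 and PHx48 3. They kept sham 3 and PHx48_ETO 4. In bulk tissue, fewer cells of a type and less RNA per cell cannot be told apart.

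**Figure D1:**
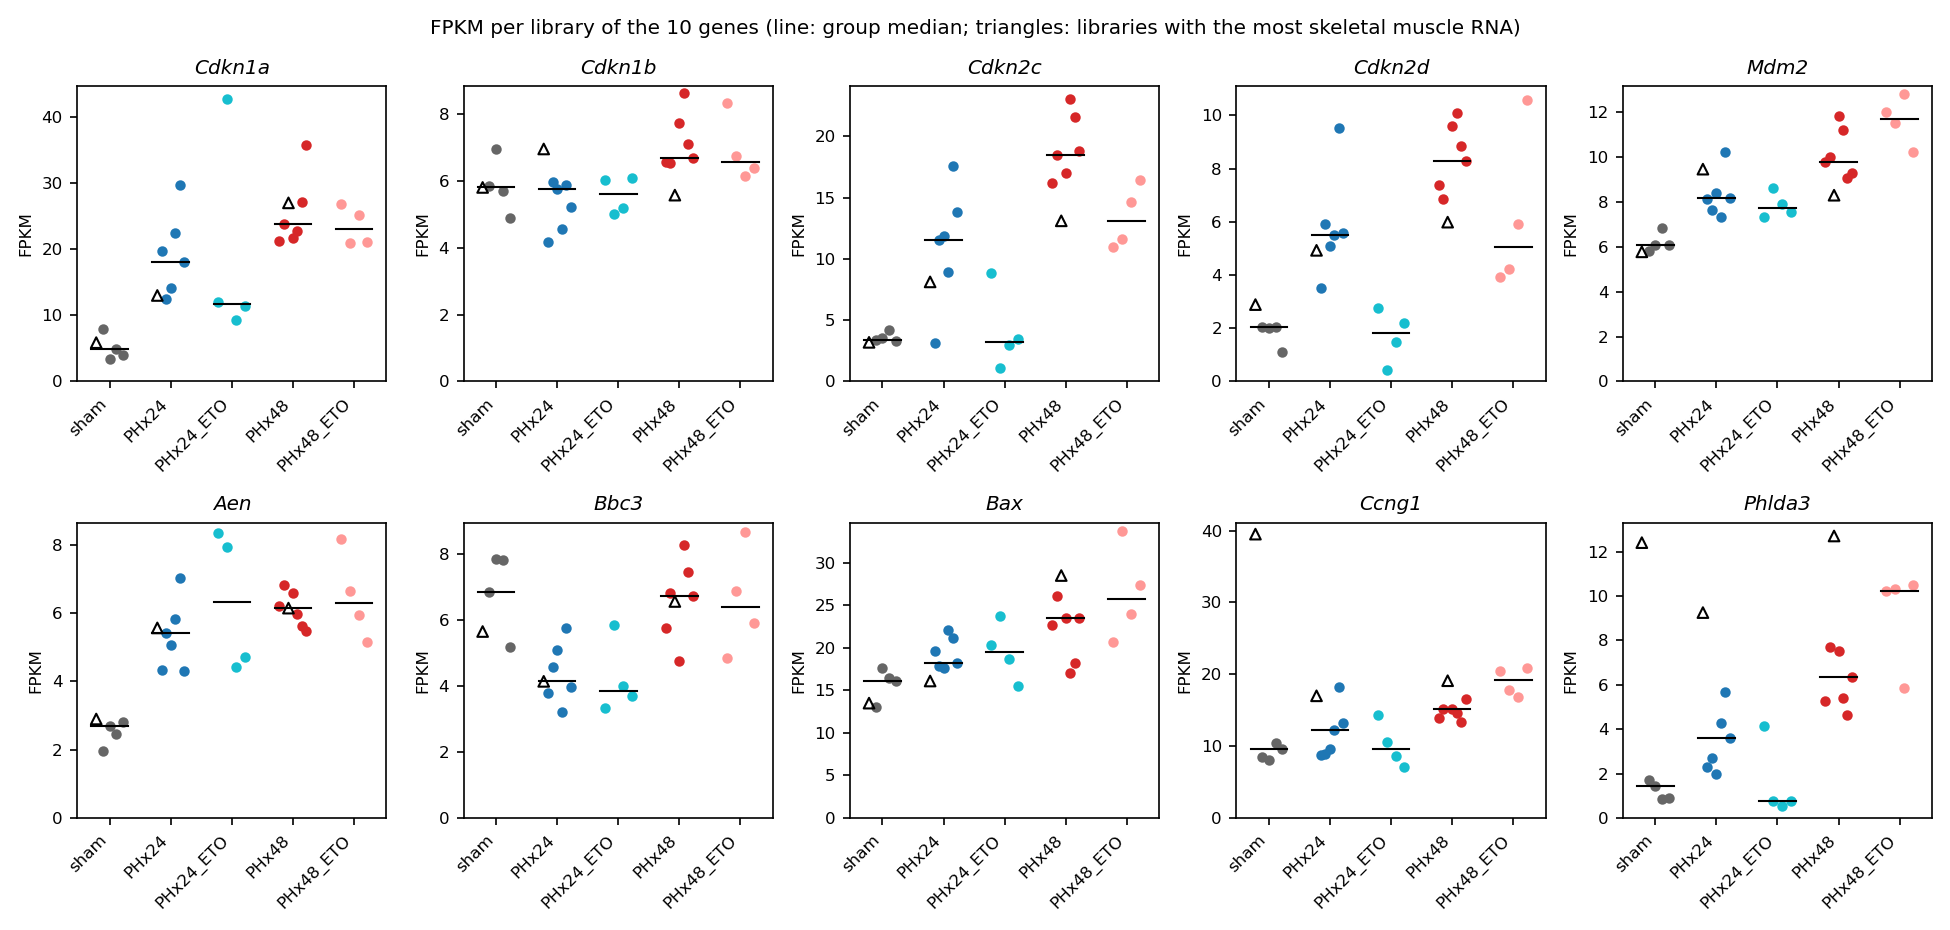
FPKM of each of the 10 genes (vertical axes, linear from 0) in every library of the 5 groups; each point is a library, the line is the group median and open triangles are sham 1, PHx24 1 and PHx48 3. Cdkn1a, Mdm2 and Aen lie above all sham libraries at both times, Cdkn2c and Cdkn2d fall with etomoxir at 24 h, and sham 1 stands far above the other sham libraries for Ccng1 and Phlda3.

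The promoters of the members are shown first because p53 is known to act on several of them through a pair of adjoining half-sites. In RefSeq's GRCm38.p6 promoter set, which held all 10 genes with 15 start sites, the 250 bases before each start were searched on both strands for the p53 full site (the half-site consensus of p53 repeated, with no spacer). Only Cdkn1a and Ccng1 held a full site at most 1 base off the consensus. Their windows are given 5′ to 3′ on the gene's own strand, with the site in capitals; that of Cdkn1a lies at chr17:29090908-29090967 on the plus strand and that of Ccng1 at chr11:40755442-40755501 on the minus strand.
Cdkn1a: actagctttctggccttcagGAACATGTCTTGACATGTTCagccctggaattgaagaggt
Ccng1: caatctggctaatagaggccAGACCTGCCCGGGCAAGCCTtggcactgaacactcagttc
The Cdkn1a site begins 51 bases before the upstream of its start sites, and the Ccng1 site 195 bases before its start. Neither window holds an annotated exon. Such a site at most 1 base off was present in 25 of 32851 promoters of that length (0.0761%). The best sites of Aen, Bax, Bbc3 and Cdkn1b were 3 bases off, a distance that 5.32% of promoters reached. The best of Cdkn2c and Cdkn2d were 4 bases off, and those of Mdm2 and Phlda3 5 off. The known p53 sites of Mdm2 lie inside the gene, outside this window. A match describes letters only. Of the 2 genes with a near-perfect site, Cdkn1a rose after resection. Ccng1, with all libraries, was called in neither comparison with sham. Without sham 1, the library richest in muscle RNA, Ccng1 was called higher at 48 h (log2 fold change 0.770, edgeR adjusted p = 0.00333).

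The first question was which of the 10 genes had changed 24 h and 48 h after resection. At 24 h 6 of the 10 changed, 5 higher (Cdkn1a, Cdkn2c, Cdkn2d, Mdm2 and Aen) and 1 lower (Bbc3). Among all 12376 genes tested, 35% were called in this comparison, 19.1% higher and 15.8% lower. At 48 h 6 of the 10 were higher (the same 5 and Bax) and 0 lower, against 36.5% of all genes called, 19.5% higher and 17% lower. The median log2 fold change of the 10 was 0.408 at 24 h and 0.855 at 48 h, beside 0.00817 and 0.0095 over all genes tested. The 2 comparisons share their sham libraries. These values are relative to the typical gene: scaled to equal totals in TPM, the median of all genes moved to 0.191 at 24 h, 0.324 at 48 h and 0.128 between the times.

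Cdkn1a (ENSMUSG00000023067, GRCm38 chromosome 17, 29090976 to 29100727, plus strand) rose at both times. Its FPKM in sham was 5.87, 7.9, 3.35, 4.93 and 3.93. In PHx24 it ran from 12.5 through a median of 18.0 to 29.7, and in PHx48 from 21.2 through 23.8 to 35.7. Every resected library without etomoxir was above every sham library. The fold was 3.58 at 24 h (log2 fold change 1.84, SE 0.315, edgeR adjusted p = 6.59e-05) and 4.95 at 48 h (2.31, SE 0.321, adjusted p = 3.87e-06). In sham it ranked 6th of the 10 by mean level, at 5.19 ± 1.79 FPKM (SD, n = 5). In PHx48 it ranked 1st at 25.6 ± 5.03 FPKM (n = 7), although its values overlapped those of Bax, the next gene. Cdkn1a shares 273 exon bases with AC167363.2 on the other strand, whose mean was 0.553 FPKM.

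Cdkn1b, the other CIP/KIP inhibitor (ENSMUSG00000003031, chromosome 6, 134920401 to 134925513, plus strand), was not called at either time. It was at 5.8, 5.83, 6.96, 5.69 and 4.89 FPKM in sham. It ran from 4.16 to 6.95 (median 5.75) in PHx24 and from 5.57 to 8.61 (median 6.68) in PHx48, so all groups overlapped. The log2 fold changes against sham were -0.071 and 0.269 (SE 0.122 for both), with edgeR adjusted p of 0.691 and 0.0882. The 48 h value was called when counts were scaled to library totals only (0.485, adjusted p = 0.00684) and in TPM (0.582, limma adjusted p = 0.0012). The ratio of Cdkn1a to Cdkn1b within a library had a median of 0.866 in sham (0.481 to 1.35), 3.45 in PHx24 (1.87 to 5.07) and 3.65 in PHx48 (2.64 to 5.34). p21 mRNA was thus at most 1.35 times p27 mRNA in any sham liver and at least 1.87 times it in any resected liver without etomoxir.

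Both INK4 genes rose. Cdkn2c (ENSMUSG00000028551, chromosome 4, 109660876 to 109667189, minus strand) was at 3.19, 3.36, 3.53, 4.19 and 3.32 FPKM in sham. In PHx24 it ran from 3.15 through 11.5 to 17.6 FPKM, and in PHx48 from 13.1 through 18.5 to 23.0. The library PHx24 2, at 3.15, was below all sham libraries while the other 6 of that group were above them, and all PHx48 libraries were. PHx24 2 also stood apart in immune markers. Its 6 neutrophil markers summed to 81.9 FPKM, against 4.11 to 11.3 in the other PHx24 libraries, and its 5 monocyte markers to 75.6, against 26.3 to 37.1. The log2 fold changes were 1.62 (SE 0.347, edgeR adjusted p = 0.000709) and 2.39 (SE 0.357, adjusted p = 9.42e-06). Without PHx24 2 the value at 24 h was 1.78 (adjusted p = 7.5e-05).

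Cdkn2d (ENSMUSG00000096472, chromosome 9, 21288410 to 21291407, minus strand) was at 2.89, 2.06, 2.01, 2.06 and 1.11 FPKM in sham. It ran from 3.5 through 5.51 to 9.54 in PHx24 and from 5.99 through 8.29 to 10.1 in PHx48, above every sham library at both times. It rose by 1.5 (SE 0.326, edgeR adjusted p = 0.000822) and 2 (SE 0.33, adjusted p = 3.42e-05) on the log2 scale. The ratio of Cdkn2c to Cdkn2d stayed within overlapping ranges, with medians of 1.76 in sham, 1.84 in PHx24 and 2.27 in PHx48.

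Among the p53 targets, Mdm2 (ENSMUSG00000020184, chromosome 10, 117688875 to 117710758, minus strand) moved by a small and steady amount. It was at 5.77, 5.82, 6.07, 6.81 and 6.08 FPKM in sham, from 7.33 through 8.17 to 10.2 in PHx24, and from 8.29 through 9.78 to 11.8 in PHx48. No resected library overlapped sham. The rise was 1.41-fold at 24 h (log2 fold change 0.492, SE 0.0917, edgeR adjusted p = 0.000169) and 1.64-fold at 48 h (0.717, SE 0.0922, adjusted p = 1.36e-06). The ratio of Cdkn1a to Mdm2 went from a median of 0.723 in sham to 2.2 in PHx24 and 2.38 in PHx48.

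Aen, which encodes a nuclease that p53 induces (ENSMUSG00000030609, chromosome 7, 78895854 to 78911209, plus strand), was at 2.9, 1.95, 2.69, 2.46 and 2.8 FPKM in sham. It ran from 4.32 through 5.41 to 7.02 in PHx24 and from 5.49 through 6.15 to 6.84 in PHx48, again with no overlap. Its log2 fold changes were 1.08 (SE 0.161, edgeR adjusted p = 1.28e-05) and 1.27 (SE 0.162, adjusted p = 1.18e-06).

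The BCL2-family members went separate ways. Bbc3 (ENSMUSG00000002083, chromosome 7, 16308393 to 16318205, plus strand) encodes PUMA, a BH3-only protein that frees BAX and BAK to open mitochondria. It was at 5.65, 6.85, 7.86, 7.81 and 5.17 FPKM in sham and from 3.21 through 4.14 to 5.77 in PHx24. It fell by 0.594 at 24 h (log2 scale, SE 0.166, edgeR adjusted p = 0.00677), with 6 of 7 PHx24 libraries below all sham libraries. In TPM the fall was 0.363 and not called (limma adjusted p = 0.0725). At 48 h it overlapped the sham range at both ends, from 4.75 through 6.73 to 8.26 FPKM, and against sham it differed by 0.00361 on the log2 scale (SE 0.166, adjusted p = 0.989).

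Bax, the pore-forming protein itself (ENSMUSG00000003873, chromosome 7, 45461697 to 45466898, minus strand), was at 13.5, 13, 17.6, 16.5 and 16.1 FPKM in sham. It ran from 16.1 through 18.2 to 22.1 in PHx24 and from 17 through 23.5 to 28.5 in PHx48, and 6 of 7 PHx48 libraries were above all sham libraries. The log2 fold change was 0.325 at 24 h (SE 0.134, edgeR adjusted p = 0.0623) and 0.595 at 48 h (SE 0.135, adjusted p = 0.00112). The 24 h value was called in 4 of 23 alternatives, among them without PHx24 1 (0.356, edgeR adjusted p = 0.0495) and in TPM (0.514, limma adjusted p = 0.00988). Without the 4 libraries with other tissues the 48 h value was 0.397 and no longer called (adjusted p = 0.0645). The ratio of Bax to Bbc3 was 1.89 to 3.11 in sham and 3.45 to 6.9 in PHx24, with no overlap, and 2.06 to 4.95 in PHx48.

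For Ccng1 and Phlda3, the library sham 1 stood far above the other sham libraries. The calls of Ccng1 at 48 h and of Phlda3 at 24 h depended on it. Ccng1, cyclin G1 (ENSMUSG00000020326, chromosome 11, 40748552 to 40755311, minus strand), was at 39.5 FPKM in sham 1 and at 8.46, 8.08, 10.4 and 9.62 in the other sham libraries. It ran from 8.74 through 12.2 to 18.2 in PHx24 and from 13.3 through 15.2 to 19.1 in PHx48. With all libraries its log2 fold changes were -0.288 (SE 0.31) and 0.00507 (SE 0.311), with edgeR adjusted p of 0.504 and 0.991. Without sham 1 the value at 24 h turned to 0.469 (adjusted p = 0.0641), and the value at 48 h was 0.770 and called (adjusted p = 0.00333). Without all 4 libraries with other tissues they were 0.352 (adjusted p = 0.219) and 0.672 (adjusted p = 0.0192).

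Phlda3, an inhibitor of the survival kinase AKT (ENSMUSG00000041801, chromosome 1, 135766119 to 135769136, plus strand), was at 12.4 FPKM in sham 1 and at 1.73, 1.45, 0.841 and 0.88 in the others. In PHx24 it was 9.25 in library 1 and from 2.0 to 5.66 in the other 6, and in PHx48 12.7 in library 3 and from 4.65 to 7.7 in the other 6. Each of these highest values was in the library with the most muscle RNA of its group. With all libraries edgeR called neither time (log2 fold change 0.259, SE 0.579, adjusted p = 0.767, and 0.992, SE 0.585, adjusted p = 0.192). Of 23 alternatives 6 called the 48 h value, not all of them without sham 1. Among them was limma on log2(FPKM + 1) with all libraries (1.30, adjusted p = 0.0124). Without sham 1 edgeR called both times, at 1.79 (adjusted p = 0.0078) and 2.53 (adjusted p = 0.000435). Without the 4 libraries they were 1.69 (adjusted p = 0.0159) and 2.54 (adjusted p = 0.000832). In the libraries outside those 3, every PHx24 and PHx48 value lay above every sham value.

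**Figure D2:**
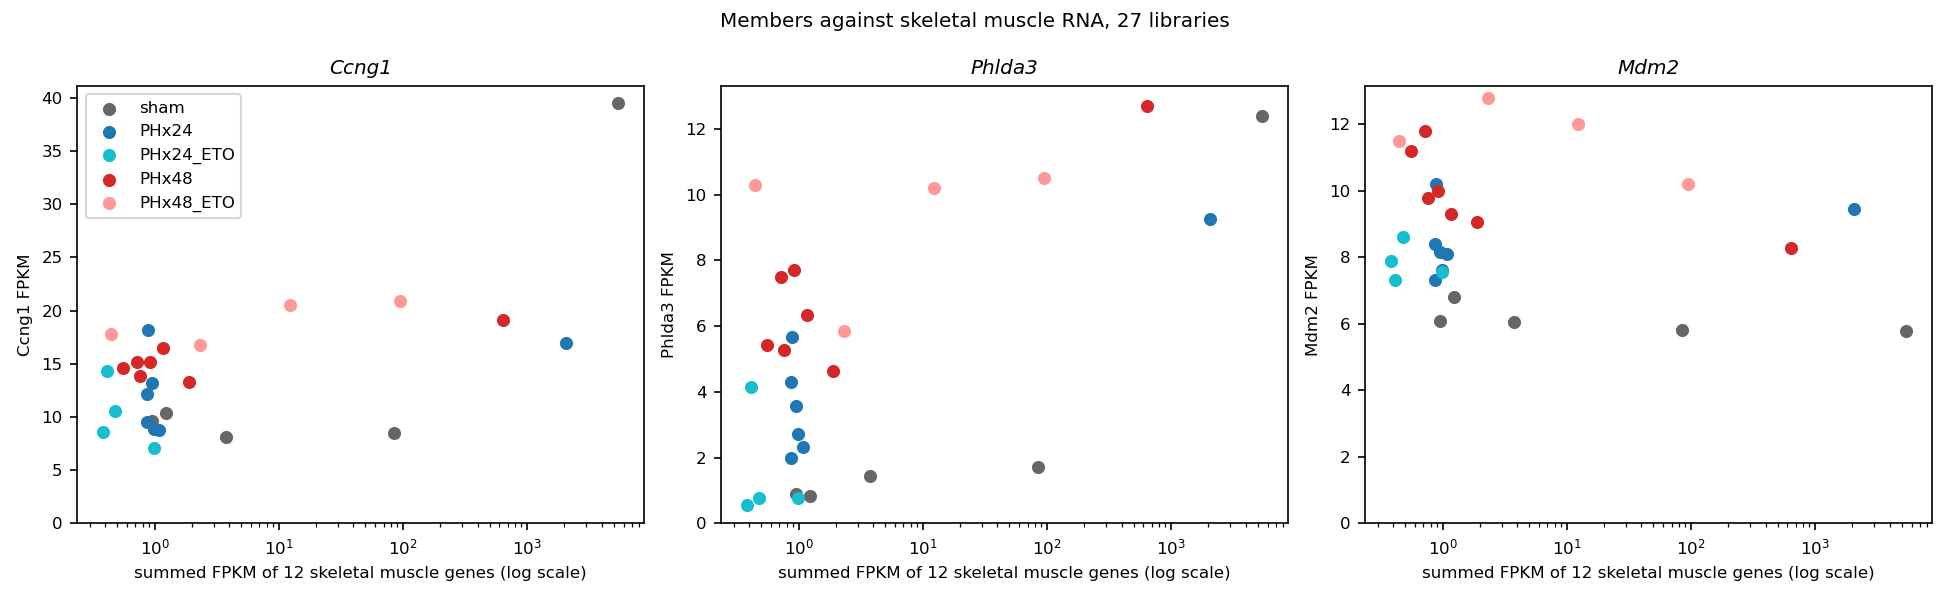
FPKM of Ccng1, Phlda3 and Mdm2 (vertical axes, linear from 0) against the summed FPKM of 12 skeletal muscle genes (horizontal axis, log scale) in 27 libraries coloured by group. Sham 1, at 5440 FPKM of muscle genes, is at 39.5 FPKM of Ccng1 and 12.4 of Phlda3 but at 5.77 of Mdm2, inside the range of the sham libraries.

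The summed muscle level was 0.961 to 5440 FPKM in sham, 0.867 to 2050 in PHx24, 0.385 to 0.995 in PHx24_ETO, 0.562 to 640 in PHx48 and 0.444 to 95.6 in PHx48_ETO. Of the 12 muscle genes, 11 were tested and 0 were called by edgeR in the comparisons with sham (0 and 1 at an unadjusted p under 0.05), where their median log2 fold changes were -2.08 and -3.66. In PHx24_ETO 7 of the 12 were at 0 in all libraries, and in PHx48_ETO 1 was. In PHx48_ETO 1 to 4, Phlda3 was at 10.2, 10.3, 5.85 and 10.5 FPKM, beside 12.4, 0.444, 2.34 and 95.6 FPKM of the muscle genes. Ccng1 was at 20.5, 17.8, 16.8 and 20.9 FPKM in these libraries. The part of muscle RNA in the remaining differences was not tested.

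The 2 times after resection were then compared with each other. Of the 10 genes 2 were called, both higher at 48 h, against 11.6% of all genes called. The median log2 fold change of the 10 was 0.404, against -0.00588 over all genes, and the log2 fold changes of all 10 were above 0. Bbc3 rose again by 0.598 (SE 0.153, edgeR adjusted p = 0.0106), from the 24 h range of 3.21 to 5.77 FPKM to 4.75 to 8.26. Cdkn1b rose by 0.340 (SE 0.111, adjusted p = 0.0464), a call that was lost without any 1 of 12 of these libraries (adjusted p up to 0.11) and kept only without PHx24 1 or PHx48 3. Cdkn2c differed by 0.772 (SE 0.295, adjusted p = 0.0904) and Mdm2 by 0.225 (SE 0.0824, adjusted p = 0.0753). Of 25 alternatives 6 called Cdkn2c and 5 called Mdm2. Among these, edgeR called both without PHx24 6 (0.933, adjusted p = 0.0449, and 0.275, adjusted p = 0.0278) and Mdm2 also without PHx48 3 (0.259, adjusted p = 0.0455). In TPM limma called both (1.02, adjusted p = 0.0132, and 0.361, adjusted p = 0.0204). Cdkn1a, at 0.468 (SE 0.268, adjusted p = 0.281), overlapped between the times.

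**Figure D3:**
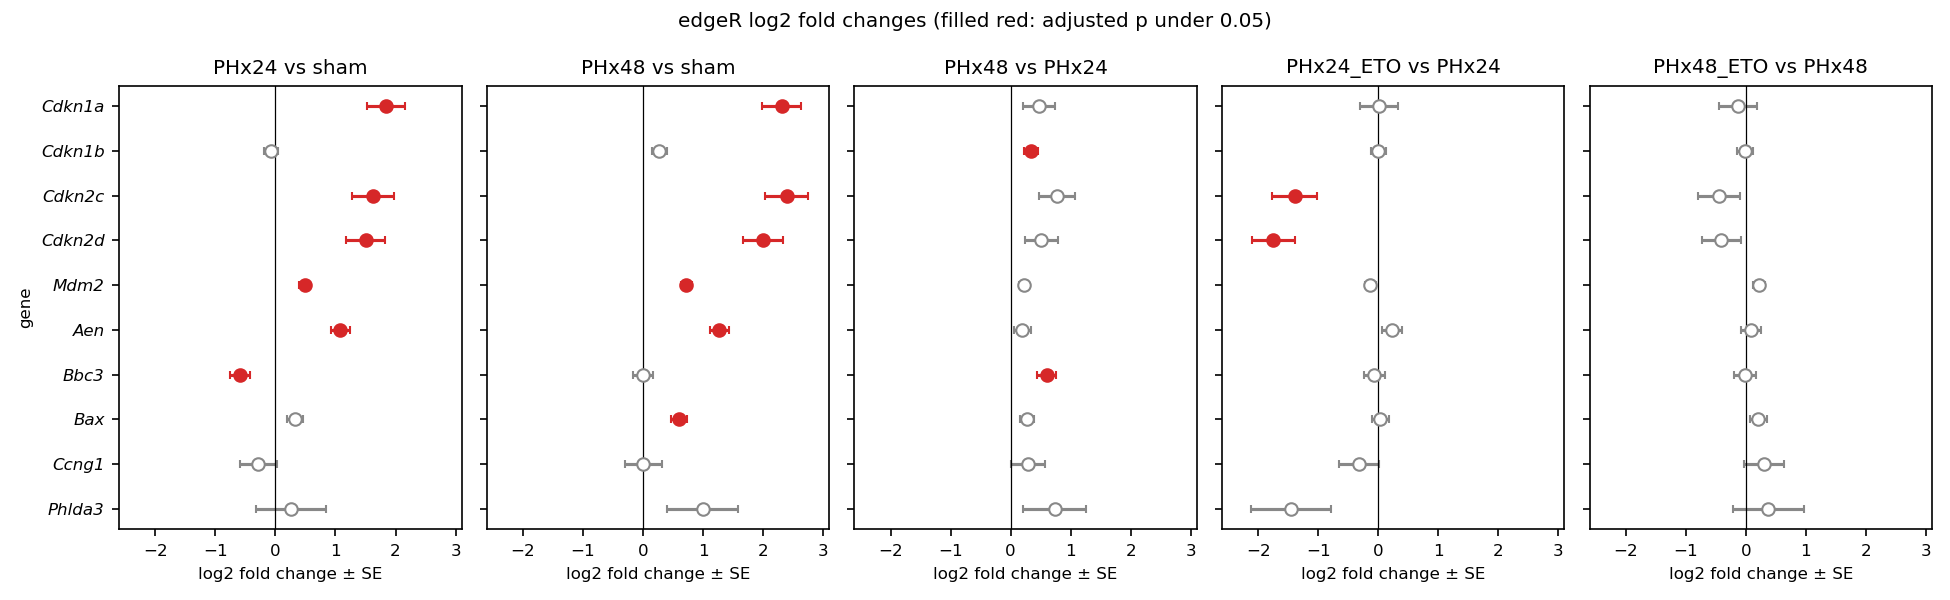
Log2 fold change with its standard error from edgeR (horizontal axes) of the 10 genes in the 5 comparisons; filled red points have an adjusted p under 0.05 over 12376 genes. The panels against sham hold 6 filled points each, the panel of 24 h with etomoxir holds Cdkn2c and Cdkn2d on the lower side, and the panel of 48 h with etomoxir holds 0.

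The next question was whether etomoxir moved these genes. At 24 h 2 of the 10 changed, both lower in PHx24_ETO than in PHx24, where 2.9% of all genes were called. They were the INK4 genes. Markers of some other cell types were also low in these libraries, although edgeR called only 1 of 8 Kupffer cell markers lower and 0 of 4 tested erythroid and 0 of 1 tested monocyte markers. The 8 Kupffer markers (median log2 fold change -0.923) summed to 69.6 to 126 FPKM in PHx24_ETO and 124 to 234 in PHx24. The 5 erythroid markers (-1.37 over those tested) summed to 85.6 to 166 and 192 to 432. The 5 monocyte markers (-1.26 for the 1 tested) summed to 10.2 to 34.3 and 26.3 to 75.6. Medians were nearer 0 for sinusoidal endothelial (-0.363) and stellate cell and fibroblast markers (-0.245). Gut epithelium markers went the other way (0.629 over those tested, 0 called), with sums of 123 to 148 FPKM in PHx24_ETO and 63.8 to 122 in PHx24. None of these markers was at 0 throughout either group, and their part in the fall was not tested. Cdkn2d was at 2.77, 0.426, 1.47 and 2.19 FPKM in PHx24_ETO, and every one of these was below the lowest PHx24 library (3.5 FPKM) and within or below the sham range. Its log2 fold change was -1.75 (SE 0.359, edgeR adjusted p = 0.0106), a level 3.36 times lower. When only these 2 groups were fitted the same difference had an adjusted p of 0.0849.

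Cdkn2c was at 8.86, 1.11, 3.0 and 3.45 FPKM in PHx24_ETO. Library 1 lay inside the PHx24 range, while 2 of the 4 were below every PHx24 library. The log2 fold change was -1.39 (SE 0.371, edgeR adjusted p = 0.0389). This call was lost in 7 of the fits that left out 1 library (PHx24 3, 4, 6 or 7, or PHx24_ETO 2, 3 or 4; adjusted p up to 0.124), without the 4 libraries with other tissues (adjusted p = 0.0512), with the compared groups only (adjusted p = 0.213) and with a filter of 10 counts in all (adjusted p = 0.0635). Without PHx24_ETO 1 it was -2.11 (adjusted p = 0.000471).

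The other 8 genes were not called at 24 h. Cdkn1a was at 12, 42.7, 9.34 and 11.4 FPKM in PHx24_ETO. Library 2 was above every other library of the study, and the other 3 were below every PHx24 library. The log2 fold change was 0.0126 (SE 0.313, edgeR adjusted p = 0.987), and without PHx24_ETO 2 it was -0.773 (adjusted p = 0.126). The same library 2 had the lowest Cdkn2c and Cdkn2d of all 27 and the highest Bbc3, Bax and Mdm2 of its group, at 5.86, 23.7 and 8.61 FPKM.

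Aen was at 8.34, 7.93, 4.42 and 4.71 FPKM in PHx24_ETO, with 2 libraries above all of PHx24 (log2 fold change 0.228, SE 0.164, edgeR adjusted p = 0.463). Phlda3 was at 4.15, 0.783, 0.548 and 0.781 FPKM, with 3 of 4 below all of PHx24 (-1.45, SE 0.667, adjusted p = 0.231). Without PHx24_ETO 1 that difference was -2.62 and called (adjusted p = 0.0269). Ccng1, at 14.3, 10.6, 8.62 and 7.11 FPKM, had a log2 fold change of -0.321 (SE 0.338). Those of Cdkn1b, Mdm2, Bbc3 and Bax lay between -0.13 and 0.0313, with SE of 0.131, 0.0972, 0.18 and 0.142. With these errors the genes are not shown to be alike with and without etomoxir.

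At 48 h 0 of the 10 were called between PHx48_ETO and PHx48 by edgeR, where 0.21% of all genes were. At an unadjusted p under 0.05 there was 1 (Mdm2). Its FPKM of 12, 11.5, 12.8 and 10.2 compared with 8.29 to 11.8 in PHx48 (log2 fold change 0.223, SE 0.0957, adjusted p = 0.56). Cdkn2d was at 3.94, 4.23, 5.92 and 10.6 FPKM, 3 of 4 below every PHx48 library (-0.409, SE 0.326, adjusted p = 0.812), and Cdkn2c at 11, 11.6, 14.6 and 16.4 FPKM (-0.452, SE 0.349, adjusted p = 0.797). Cdkn1a was at 26.9, 21, 25.1 and 21.1 FPKM, inside or just below the PHx48 range (-0.125, SE 0.314). DESeq2 also called 0 of the 10.

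Whether the etomoxir effect differed between the times was tested directly as a difference of differences. None of the 10 was called (0 by edgeR, where 0.0162% of all genes were, and 3 at an unadjusted p under 0.05). These 3 were Cdkn2d (1.34, SE 0.469, adjusted p = 0.395), Mdm2 (0.352, SE 0.137, adjusted p = 0.455) and Phlda3 (1.82, SE 0.882, adjusted p = 0.58). Without PHx24_ETO 1, the difference for Cdkn2c was 1.66 and called (adjusted p = 0.0469). The fall of the INK4 genes at 24 h is therefore not shown to differ from their values at 48 h with all libraries.

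Within groups the 10 genes did not move as a block. Over the 27 libraries, deviations of log2(FPKM + 1) from the group means gave a median Pearson r of 0.0952 over the 45 pairs of members. Over all libraries 2 pairs reached 0.5: Cdkn2c with Cdkn2d (0.761) and Ccng1 with Phlda3 (0.892). The lowest pair was Cdkn1b with Bax (-0.527). These r are descriptions of libraries that share groups and scaling, and have no p. For Cdkn2c with Cdkn2d, r was 0.861 within the 7 PHx24 libraries and 0.763 within the 7 PHx48 libraries. Without the 3 libraries rich in muscle RNA, r was 0.778 for Cdkn2c with Cdkn2d, 0.767 for Ccng1 with Phlda3 and -0.436 for Cdkn1b with Bax. Aen then also passed 0.5 with Ccng1 (0.541, from 0.443) and with Phlda3 (0.507, from 0.428). Cdkn1a and Cdkn2c, both raised by resection, had an r of -0.294, and of -0.211 without the 2 libraries where Cdkn1a deviated most. Within PHx24 this r was 0.144 and within PHx48 0.0302, so no inverse relation was seen inside those groups.

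**Figure D4:**
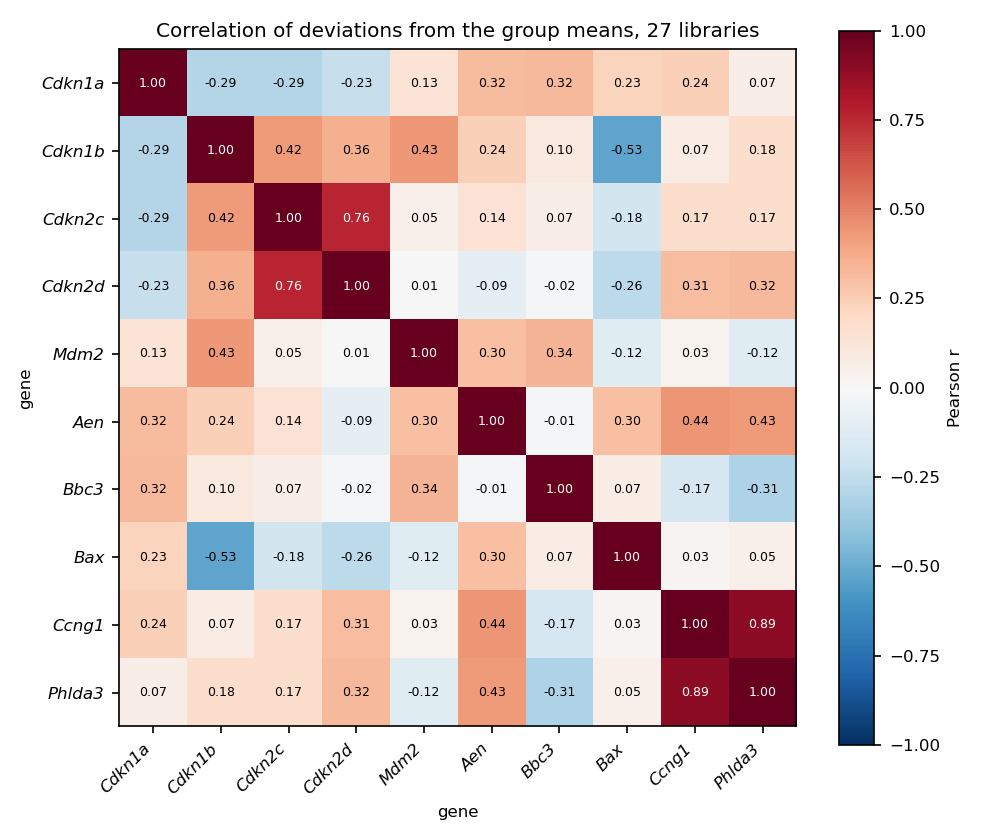
Pearson r between each pair of the 10 genes (both axes), from deviations of log2(FPKM + 1) from the group means in 27 libraries; red is positive and blue negative, on the scale from -1 to 1. The 2 dark blocks off the diagonal are Cdkn2c with Cdkn2d and Ccng1 with Phlda3.

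The genes most like each member differed as well. Those nearest to Cdkn2c were the chromosome genes Top2a (r = 0.965), Ncaph (0.943) and Aurkb (0.943), all known from mitosis. Leaving out the 2 libraries where Cdkn2c deviated most, PHx24 2 and PHx24_ETO 1, r with Top2a was 0.938. Top2a was at 1.33 FPKM in PHx24 2 against 4.41 to 9.04 in the other PHx24 libraries. In PHx24_ETO it was at 5.84, 0.0542, 0.799 and 1.35 FPKM, the same order as Cdkn2c. Cdkn2d was nearest to Nrm (0.814), the primase subunit gene Prim1 (0.805) and P2ry1 (0.797).

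**Figure D5:**
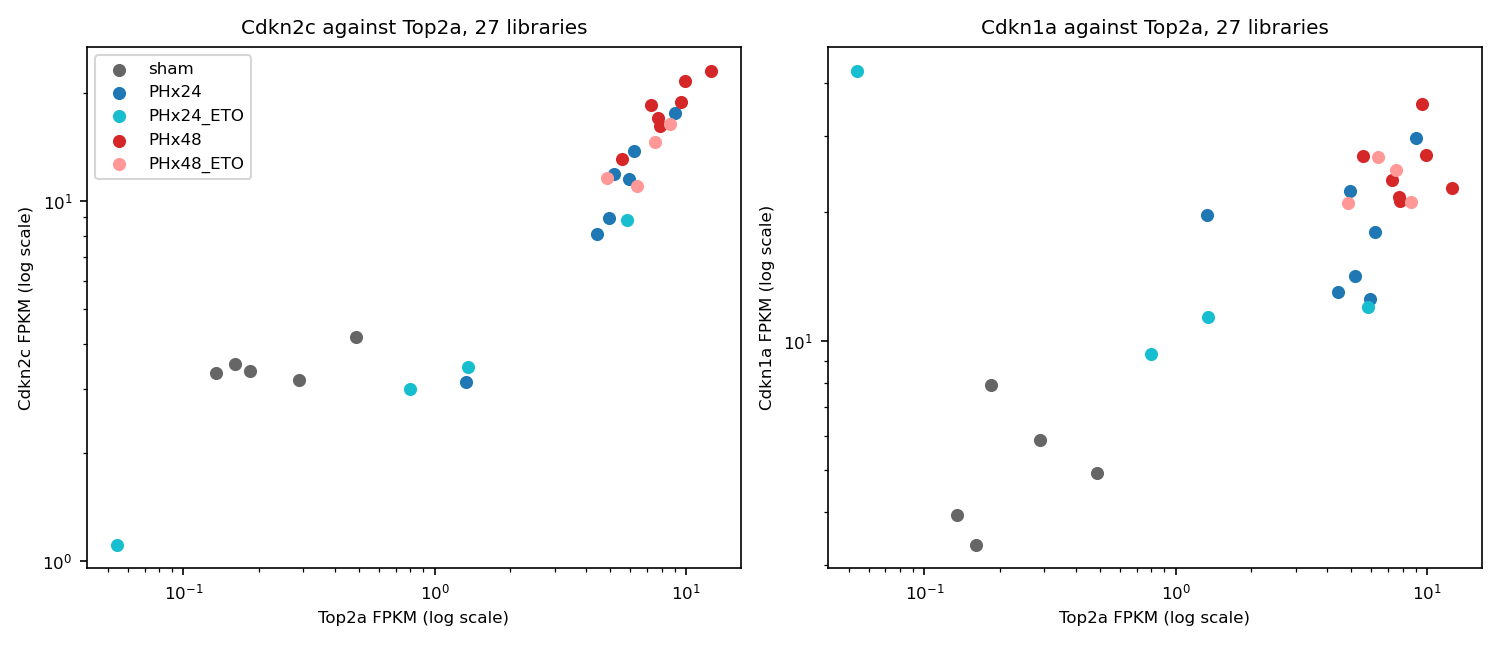
FPKM of Cdkn2c (left) and Cdkn1a (right) against FPKM of Top2a in 27 libraries coloured by group, all axes on log scales. Cdkn2c follows Top2a above about 1 FPKM, and PHx24_ETO 2, at 0.0542 FPKM of Top2a, is lowest for Cdkn2c and highest for Cdkn1a at 42.7 FPKM.

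Cdkn1a was nearest to the phosphatase gene Dusp16 (0.809, or 0.592 without PHx24 6 and PHx24_ETO 2), Sult1e1 (0.802) and Lmbr1 (0.783). Sult1e1 was at 128 FPKM in PHx24_ETO 2, the library highest for Cdkn1a, and at most at 3.39 FPKM in any other library. Within PHx48 the r of Cdkn1a with Dusp16 was -0.123. Mdm2 was nearest to Usp7 (0.805), whose product removes ubiquitin from both Mdm2 and p53, Hnrnpu (0.775) and Zfp143 (0.729). Aen was nearest to Gm8319 (0.784), the death receptor gene Tnfrsf10b (0.756) and Ubtd2 (0.744). For Cdkn1b these were Fam81a (0.784), Abcc2 (0.762) and Pnn (0.733), for Bbc3 Sft2d1 (0.722), Npm3 (0.702) and Gmeb2 (0.697), and for Bax Rae1 (0.725), Dok2 (0.672) and Fam124a (0.662). Ccng1 was nearest to Ddit4l (0.923), Phlda3 and Map3k20 (0.884), and Phlda3 to Ccng1, Map3k20 (0.859) and the tropomyosin gene Tpm2 (0.855). Without the 3 libraries rich in muscle RNA these r were lower. For Ccng1 they were 0.795 with Ddit4l and 0.71 with Map3k20, and for Phlda3 0.679 with Map3k20 and 0.616 with Tpm2. Among the sham libraries, sham 1 was the highest for both members.

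The rest of the pathway is given from lists of textbook members, chosen with earlier results of these data known. Of 4 other inhibitor genes 2 were tested. Cdkn3, a phosphatase of Cdk2 that is itself a mitotic gene, rose by 2.61 at 24 h and 6.44 at 48 h (SE 0.455 and 0.456, edgeR adjusted p = 8.2e-05 and 1.67e-10). It fell by 2.20 with etomoxir at 24 h (SE 0.463, adjusted p = 0.0117). Cdkn1c, the third CIP/KIP gene, fell by 1.35 at 24 h (SE 0.503, adjusted p = 0.0388), from 0.438 to 2.78 FPKM in sham to 0.029 to 1.1. Cdkn2a and Cdkn2b, the remaining INK4 genes, were not tested: Cdkn2a was at most 0.0651 FPKM in sham and 0.152 to 0.659 in PHx48, and Cdkn2b at most 2.03 FPKM in any library.

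Trp53, the gene of p53 itself, rose as well. Its mean FPKM was 5.52 ± 0.459 (SD, n = 5) in sham, 8.51 ± 1.11 (n = 7) in PHx24 and 7.82 ± 0.669 (n = 7) in PHx48. The log2 fold changes were 0.644 (SE 0.104, edgeR adjusted p = 3.54e-05) and 0.520 (SE 0.104, adjusted p = 0.000314), with 7 of 7 libraries above all sham libraries each time. Mdm4, the partner of Mdm2, was higher at 48 h only by the test against sham (0.273, SE 0.0949, adjusted p = 0.0255, and at 24 h 0.0401, SE 0.0945, adjusted p = 0.778), and its change between the times was not called (adjusted p = 0.0787). Of 9 tested genes of p53 and its regulators, 3 were higher and 1 lower at 24 h, and 4 and 1 at 48 h, or 44.4% and 55.6% called against 35% and 36.5% of all genes. The checkpoint kinase gene Chek1 led them, at 3.46 and 3.06, and the p53 ligase gene Cop1 was the lower one, at -0.275 and -0.198. Etomoxir moved 0 of the 9 at either time by edgeR, against 2.9% and 0.21% of all genes, with 1 and 0 at an unadjusted p under 0.05.

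Other p53 targets went both ways. Of 28 tested, 9 were higher and 6 lower at 24 h, with a median of 0.103, and 10 and 2 at 48 h, with a median of 0.117. The share called was 53.6% and 42.9%, against 35% and 36.5% of all genes. Gtse1 rose by 3.13 and 4.20 and Ckap2 by 5.77 at 48 h, and both are known from mitosis. Pidd1, a death-domain adaptor, rose by 2.22 at 24 h (SE 0.231, edgeR adjusted p = 1.35e-07) and came down by 48 h (-0.615 against 24 h, adjusted p = 0.0348). Sesn1, a stress sensor of the mTORC1 pathway, fell by 0.651 and 0.493, and the repair gene Xpc by 0.338 and 0.509. From 24 h to 48 h 5 were higher and 2 lower, with Ckap2 at 2.04, Psrc1 at 2.05 and Tigar at -0.347. That is 25% called, against 11.6% of all genes. With etomoxir at 24 h 1 was called (Dcxr, -0.747, adjusted p = 0.0471), and 8 of 28 had an unadjusted p under 0.05. The share called, 3.57%, was close to the 2.9% of all genes.

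Most partners of the inhibitors rose. Of 11 cyclin and kinase genes 10 were higher at 24 h and 9 at 48 h, with medians of 2.70 and 2.07. The share called was 90.9% and 81.8%, against 35% and 36.5% of all genes. Ccne1, cyclin E1, rose by 3.91 at 24 h (SE 0.345, edgeR adjusted p = 1.03e-08) and 2.96 at 48 h. Ccnd1, cyclin D1, rose by 3.15 at 24 h, and Ccna2, cyclin A2, by 4.75 at 48 h. Both overlap a gene with a lower mean over all libraries (LTO1 and Exosc9), so a part of their reads is uncertain. In sham the mean of Ccna2 was 0.501 FPKM, below the 2.88 FPKM of Exosc9 over all libraries. From 24 h to 48 h Ccnb1 and Ccna2 rose by 3.07 and 1.81, while Cdk6 and Ccnd3 (which overlaps Bysl) fell by 0.450 and 0.361. With etomoxir 0 of the 11 were called at either time by edgeR, against 2.9% and 0.21% of all genes. At an unadjusted p under 0.05 there were 3 at 24 h and 1 at 48 h. All 12 mitosis genes rose against sham at both times (Top2a by 4.41 and Ube2c by 4.02 at 24 h, Cenpa by 3.21 and Ccnb2 by 5.55 at 48 h). Over all genes 19.1% were higher at 24 h and 19.5% at 48 h. With etomoxir at 24 h 2 of these 12 were called lower, Ccnb2 (-2.33, adjusted p = 0.0232) and Ube2c (-2.13, adjusted p = 0.0386). That is 16.7%, against 2.9% of all genes called. The median of the 12 was -1.79, and 12 of 12 had an unadjusted p under 0.05.

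Of 10 tested genes that destroy p21 and p27, 3 were higher and 1 lower at 24 h, and 4 and 1 at 48 h. That is 40% and 50% called, against 35% and 36.5% of all genes. Dtl, the substrate receptor that marks p21 for destruction in S phase, rose by 4.70 (SE 0.568, edgeR adjusted p = 1.1e-06) and 4.05. Cks1b, needed for the recognition of p27, rose by 1.34 and 1.52. The lower genes were Rnf123 at 24 h (-0.324, overlapping Gmppb and Mst1) and Cul4a at 48 h (-0.20). Of 8 tested BCL2-family genes, 0 were higher and 1 lower at 24 h (Bok, -0.940), and 1 higher and 2 lower at 48 h. The share called was 12.5% and 37.5%, against 35% and 36.5% of all genes. Those at 48 h were Bak1 at 0.383, Bid at -0.921 and Bik at -1.20, and reads of Bak1 and Bid can be shared with overlapping genes. From 24 h to 48 h Bok rose by 0.718, and Bid and Bad (which overlaps Gpr137) fell by 0.593 and 0.428. Etomoxir moved 0 of these 10 and 0 of these 8 at either time by edgeR, against 2.9% and 0.21% of all genes. At an unadjusted p under 0.05 there were 2 and 2 of the 10, and 1 and 2 of the 8, at 24 h and 48 h.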

How the data were processed

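Polyadenylated RNA of 27 mouse liver samples, taken up in TRIzol, was sequenced from NEBNext Ultra libraries, per the labels' protocols. This kit does not mark strand. The submitters' processing notes list CASAVA 1.8, fastp, DESeq2 1.20.0, featureCounts 1.5.0-p3 and HISAT2 2.0.5 beside the builds GRCm38 and mm10. What each tool did, the annotation used and the strand setting of the counting: not given in the sources used here. Raw read counts and FPKM values, both made by the authors, were deposited per gene and library, with gene coordinates and lengths. Checked on the table, a deposited FPKM value was the count over the gene's length and over a median-of-ratios size factor times a constant, and not over the total count. No 2 libraries held identical values.

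The counts of 12376 genes with 4 or more libraries at 1 FPKM or above were tested with edgeR 4.0.16 (R 4.3.3). The quasi-likelihood fit used TMM scaling and 5 group means over all 27 libraries. P-values were adjusted over all genes (Benjamini-Hochberg) and called when under 0.05. Counts at an unadjusted p under 0.05 are given without the share of all genes at that threshold. The SE is the log2 fold change over the square root of F, without sign. The biological coefficient of variation was 0.266, and total counts ranged from 14903757 to 18446372. The scripts were tested on simulated data. Alternatives were DESeq2 1.42.0, RLE factors, library totals only, other filters, limma 3.58.1 on log2(FPKM + 1), log2(FPKM + 0.1) and log2(TPM + 1), the compared groups alone, a replicate block, and libraries left out.

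The 10 genes, the gene lists and the alternatives were chosen with earlier results of these data known. All 10 were named. Of each list, each comparison names the 2 called genes with the lowest adjusted p in each direction, and Trp53, Mdm4 and other inhibitors always. For each member the 3 genes with the highest Pearson r of deviations from the group means are named. Positions are those of GRCm38, and promoter sequences are RefSeq's (GRCm38.p6).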

Additional observations from a re-analysis of the deposited data

Results flagged for a closer look

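In 8 of 50 sets of values (10 genes in 5 groups), the highest or lowest library stood apart from its group by Dixon's test, where chance gives about 1 in 20. For Cdkn1a these were PHx24_ETO 2 at 42.7 FPKM, against 9.34 to 12 in the other 3 libraries, and PHx48 7 at 35.7 FPKM, against 21.2 to 27.1 in the other 6. For Cdkn2d it was PHx24 6 at 9.54 FPKM, against 3.5 to 5.91. For Ccng1 it was sham 1 at 39.5 FPKM, against 8.08 to 10.4. Phlda3 had 4: sham 1 at 12.4 FPKM against 0.841 to 1.73, PHx24_ETO 1 at 4.15 against 0.548 to 0.783, PHx48 3 at 12.7 against 4.65 to 7.7, and PHx48_ETO 3, the low one, at 5.85 against 10.2 to 10.5. Of these libraries, sham 1 and PHx48 3 had the most skeletal muscle RNA of their groups. PHx24_ETO 1 had 0.414 FPKM of the muscle genes and PHx24_ETO 2 had 0.477.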

How the results depend on the processing

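Of 1480 values of single members under alternatives, 1343 kept their direction and their side of the threshold, 81 uncalled values turned sign, 27 calls were lost and 29 gained, and 0 called values turned sign. Members called between PHx24_ETO and PHx24 (2) numbered 1 with a filter of 10 counts in all, 0 with the compared groups only, 1 without the 4 libraries with other tissues and 1 to 3 without 1 library each. Between PHx48 and PHx24 (2) they numbered 4 with library totals only, 4 in TPM, 1 with the filter of 10 counts and 1 to 3 without 1 library. The difference of etomoxir effects called 0 members, and 0 to 1 without 1 library.

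Genes called in PHx24 against sham (4326) were 2880, and in PHx48 against sham (4513) 2945, with a filter of 5 FPKM, which tests fewer genes. Between PHx24_ETO and PHx24 (359) they were 764 by DESeq2, 223 with the 10-count filter, 0 with the compared groups only and 138 (without PHx24_ETO 2) to 1199 (without PHx24_ETO 1). Between PHx48_ETO and PHx48 (26) they were 68 by DESeq2, 10 with the 10-count filter and 1 to 25 without 1 library. The difference of effects (2) gave 42 by DESeq2, 1 in TPM and 0 to 239 without 1 library (239 without PHx24_ETO 1). The cause of the other moves was not tested.

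The replicate numbers did not pair the libraries: same-numbered libraries of different groups had a median r of 0.0202 (-0.232 to 0.655, 45 pairs). With the replicate block, PHx48_ETO against PHx48 gave 44 genes, and members called were 6, 7, 3, 1 and 0 for PHx24 and PHx48 against sham, PHx48 against PHx24 and the 2 etomoxir comparisons. Cdkn2c with etomoxir at 24 h was then -1.25 (adjusted p = 0.0742). With 4 etomoxir libraries at each time, single libraries carry much weight.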
